A study of Mus musculus with 12 samples.

Results

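Processed pseudogenes are genes that the GENCODE M21 annotation of the mouse genome (build GRCm38/mm10) classes as processed_pseudogene, and the deposited expression table listed 3774 of them among 26409 genes. Members were taken by matching the Ensembl ID of each row to that class. They were split into 185 pseudogenes of ribosomal protein genes, whose symbol starts with Rpl or Rps, and 3589 others. RNA was sequenced from the hippocampus of 12 mice aged 6 to 12 months, in 4 groups of 3: female WT, male WT, female Dek cKO and male Dek cKO. DEK is a chromatin protein. The Dek cKO line carries a germline deletion of exons 3 and 4, made by crossing mice with a floxed Dek allele to CMV-Cre mice on a C57Bl/6 background, and Cre was then bred out and the line kept by mating heterozygotes. The deletion is therefore present in every cell type. The value for each gene and library is its TPM, a level that sets a gene's reads in proportion to its length and to the library's total.

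A processed pseudogene is a copy of a spliced mRNA that was reverse transcribed and inserted elsewhere in the genome by the enzymes of LINE-1 elements. It lacks the introns of its source gene and usually its promoter, so most copies are thought to be silent unless they land near an active promoter or within a transcribed gene. Genes with abundant mRNA in the germline, ribosomal protein genes foremost, have left the most copies. A young copy still matches the source mRNA nearly base for base, and a quantification program must then divide reads that fit both.

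The sequences below show how close copies and sources can be, for the pseudogenes to which the results return. Each is written 5′ to 3′, from the transcript sequences of GENCODE M21, and a pseudogene is followed by the same stretch of the coding sequence of its source gene, with the bases at which they differ in capitals. The source gene is the protein-coding gene with the best alignment. Rpl28-ps1 (ENSMUSG00000058603, chr1:128038569-128038982, plus strand, within an intron of Zranb3 on the other strand) is identical to the mRNA of Rpl28, a protein of the large ribosomal subunit, over its whole length of 414 bases, so its first 120 bases, chr1:128038569-128038688, are shown once.
Rpl28-ps1: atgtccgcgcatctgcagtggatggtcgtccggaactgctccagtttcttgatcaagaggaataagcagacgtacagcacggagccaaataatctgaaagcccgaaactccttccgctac
Plk-ps1 (ENSMUSG00000083907, chr5:35554184-35555970, plus strand, intergenic) is a copy of Plk1, which encodes a kinase of mitosis. Its stretch chr5:35554184-35554303 differs at 8 of the first 120 bases of the coding sequence, and 81.3% of its 31-mers occur in no other annotated gene.
Plk-ps1: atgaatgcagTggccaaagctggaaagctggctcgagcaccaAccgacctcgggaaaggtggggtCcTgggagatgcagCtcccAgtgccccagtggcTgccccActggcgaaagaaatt
Plk1: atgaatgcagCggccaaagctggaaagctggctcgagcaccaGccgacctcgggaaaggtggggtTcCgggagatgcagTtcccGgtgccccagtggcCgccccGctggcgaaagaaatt
Rpl12-ps2 (ENSMUSG00000083792, chr11:20290063-20290383, minus strand, intergenic) is a copy of Rpl12, another protein of the large subunit. The stretch shown, chr11:20290243-20290362, differs at 12 of 120 bases from bases 25 to 144 of the Rpl12 coding sequence.
Rpl12-ps2: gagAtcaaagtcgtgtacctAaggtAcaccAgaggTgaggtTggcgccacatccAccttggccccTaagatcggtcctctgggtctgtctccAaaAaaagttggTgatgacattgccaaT
Rpl12: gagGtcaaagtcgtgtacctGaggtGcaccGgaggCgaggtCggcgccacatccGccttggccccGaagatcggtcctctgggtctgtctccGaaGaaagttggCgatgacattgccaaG
Gm12517 (ENSMUSG00000081499, chr3:108602391-108602815, minus strand, within an intron of Wdr47 on the other strand) and Gm9701 (ENSMUSG00000063001, chr3:62923807-62924233, minus strand, intergenic) are both copies of Rps23, a protein of the small subunit. Over 120 bases, Gm12517 (chr3:108602696-108602815) differs from Rps23 at 5 (bases 7 to 126) and Gm9701 (chr3:62924114-62924233) at 3 (bases 1 to 120).
Gm12517: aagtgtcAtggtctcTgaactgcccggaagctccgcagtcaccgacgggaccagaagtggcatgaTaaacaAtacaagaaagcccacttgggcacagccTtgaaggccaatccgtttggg
Rps23, bases 7 to 126: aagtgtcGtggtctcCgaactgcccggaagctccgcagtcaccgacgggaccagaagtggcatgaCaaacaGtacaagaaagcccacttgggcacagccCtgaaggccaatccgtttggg
Gm9701: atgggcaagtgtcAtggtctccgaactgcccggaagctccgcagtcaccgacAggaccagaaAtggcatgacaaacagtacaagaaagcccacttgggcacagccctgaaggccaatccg
Rps23, bases 1 to 120: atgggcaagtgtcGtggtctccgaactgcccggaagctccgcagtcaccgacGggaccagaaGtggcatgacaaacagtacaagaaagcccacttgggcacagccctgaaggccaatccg
Gm12895 (ENSMUSG00000083365, chr4:122455210-122455435, plus strand, intergenic) has no protein-coding match and is shown whole, at 226 bases. Gm12896, at chr4:122122847-122123072 on the same strand, shares an unbroken run of 224 bases with it.
Gm12895: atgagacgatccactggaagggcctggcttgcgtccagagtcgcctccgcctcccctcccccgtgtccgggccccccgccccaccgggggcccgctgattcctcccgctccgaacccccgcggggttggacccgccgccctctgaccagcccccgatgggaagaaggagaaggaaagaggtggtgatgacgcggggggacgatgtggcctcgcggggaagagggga

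Dek, the targeted gene, had a level of 48.3 ± 2.58 TPM (SD, n = 6) in WT and 7.23 ± 1.32 TPM (SD, n = 6) in Dek cKO libraries. All 8 markers of hippocampal neurons were above 0 in each library, with a summed level between 2013 and 2259 TPM. The summed level of 5 choroid plexus markers ranged from 45.8 to 4443 TPM, that of 4 thalamic markers from 27.0 to 55.6 TPM and that of 5 blood markers from 688.1 to 1547 TPM, and their part in the results below was not tested. In bulk tissue, fewer cells of a type and less RNA per cell cannot be told apart. By 4 Y-linked genes, 2 libraries went against their labelled sex: female cKO replicate 3 had 107.6 TPM and male cKO replicate 1 had 0.642 TPM, so the counts within a sex are also given without them. The 3 female WT libraries carry names with another prefix than the remaining 9, and a difference in origin cannot be told apart from female WT. Nothing in the labels says more of how the animals of a group were related, and p-values measure the spread between these libraries.

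Which pseudogenes the table listed depended on the chromosome. It held 561 of 577 annotated processed pseudogenes on chromosome 2 (97.2%), 549 of 581 on chromosome 4 (94.5%), 395 of 414 on chromosome 11 (95.4%) and 874 of 925 on the X chromosome (94.5%). On the remaining autosomes the share lay between 10.2% (chromosome 12) and 27.9% (chromosome 5), and 0 of 91 on the Y chromosome were listed. The listed pseudogenes were thus 38.0% of the 9940 annotated ones, with 23.2% of them on the X chromosome, against 9.31% of all annotated processed pseudogenes. Counts of members by chromosome follow this list and are not a sample of the genome.

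Of the 3774 pseudogenes, 3717 had a protein-coding source, spread over 1418 genes. Gapdh, the glycolytic dehydrogenase, was the source of 76 members, the ribosomal protein genes Rpl7a, Rps2, Rpl21 and Rps6 of 71, 68, 65 and 64, and Hmgb1, a chromatin protein, of 53. Ribosomal protein genes were the best match of 1116 members, of which 935 carry another kind of symbol (mostly Gm followed by a number) and therefore count among the others. Of the 185 members named Rpl or Rps, 174 had the gene of their name as best match. Those 185 were also closer to their sources. Their median identity was 96.7%, against 90.1% for the others, and their longest open reading frame spanned a median 99.5% of the source protein's codons, against 37.8%. The share of a pseudogene's 31-mers found in no other annotated gene, here called its private sequence, had a median of 40.0% in the ribosomal group and 81.3% in the others.

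Most members were listed at 0 or at a low level. A value above 0 in at least 1 library was found for 2507 members, of which 385 were above 0 in all 12, and 1267 were listed at 0 throughout. A mean of at least 0.1 TPM, the minimum for testing, was reached by 1372 members (99 of the ribosomal group and 1273 others), and a mean of at least 1 TPM by 378. The median member had a mean of 0.0374 TPM. Summed over members, TPM was concentrated in few of them, since the 10 members with a mean of at least 100 TPM held 63.0% of the total.

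The highest levels were found in members with little private sequence. The 162 members with no private 31-mer held 39.0% of all TPM of the members, and the 90th percentile of their means was 12.9 TPM. At the other end, the 1449 members with over 90% private sequence held 8.09% of the TPM, 53.8% of them were above 0 in some library, and their median was 0.0111 TPM. All 10 members above 100 TPM had at most 50% private sequence. Among members with over 50%, the highest mean was 36.8 TPM. TPM does not tell reads of a copy from reads of its source where the sequences are the same, and no number below separates them for such pairs.

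**Figure D1:**
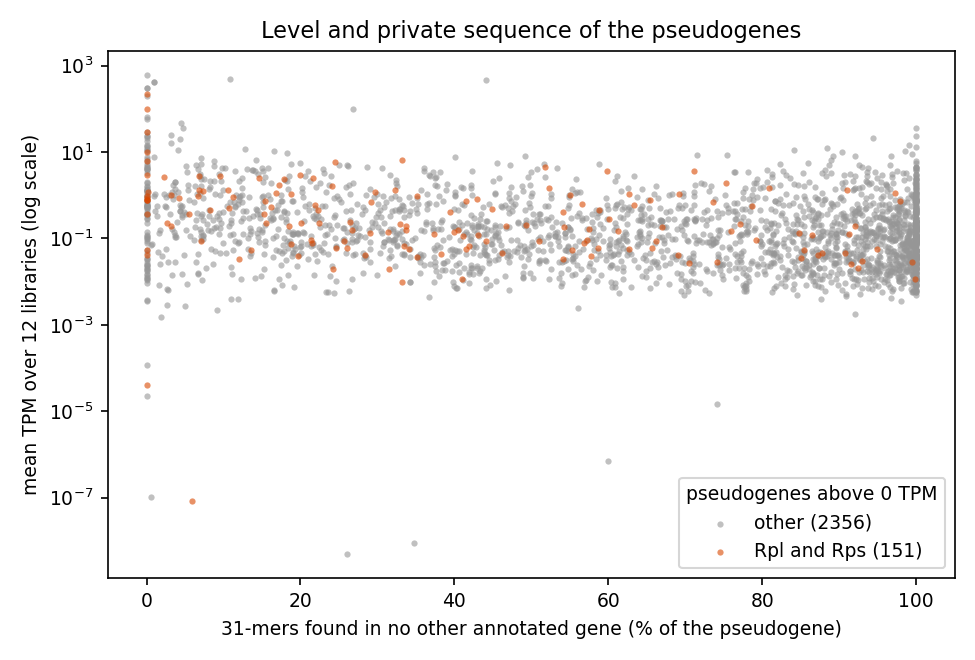
Mean TPM over 12 libraries (log scale) of each processed pseudogene above 0 TPM against the share of its 31-mers found in no other annotated gene, with 1 point for each pseudogene and Rpl and Rps pseudogenes in orange. Points above 100 TPM all lie at or below 50% private sequence, and the 1449 pseudogenes with over 90% have a median of 0.0111 TPM.

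Position also went with level, for either strand. Of 2436 intergenic members 28.9% reached 0.1 TPM, against 52.0% of 400 in an intron of a coding gene on the same strand and 51.9% of 644 in an intron on the other strand. Among introns on the same strand, 62.1% of 224 members reached it where the host gene had a mean of at least 10 TPM and 26.1% of 69 where the host was under 1 TPM. On the other strand these shares were 62.7% of 357 and 29.6% of 98. Hosts and members share the libraries, and reads of unspliced host RNA were not told apart from reads of the pseudogene. The level of the source gene gave a smaller gradient, from 21.5% of 228 members with a source under 1 TPM to 41.0% of 1908 with a source of at least 100 TPM.

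The most abundant member was Gm7536 (ENSMUSG00000057036, chr3:24333068-24333511, plus strand, in an intron of Naaladl2 on the other strand). It is identical to Rpl27a, a protein of the large subunit, and had no private 31-mer. Its level was lowest at 532.1 TPM, with a median of 603.4 TPM, and highest at 705.9 TPM, against 197.7 ± 22.2 TPM (SD, n = 12) for Rpl27a itself, so the copy was listed above its source in every library. Gm13493, a copy of Ppia (cyclophilin A), followed with a mean of 490.0 TPM beside 1502 TPM for Ppia. Gm9701, the Rps23 copy shown above, had 463.6 ± 35.6 TPM (SD, n = 12), while Rps23 lay between 161.1 and 230.9 TPM. Its private sequence was 44.1%, the highest of the 10 members above 100 TPM. Ndufb4c, identical to the respiratory chain subunit gene Ndufb4, had 300.5 ± 23.2 TPM against 49.96 ± 4.16 TPM for the source. Gm10443 (identical to Rps28, of the small subunit) had 299.6 TPM, Tpt1-ps3 (identical to Tpt1, the translationally controlled tumor protein) 201.4 TPM, Pabpc1l2b-ps (77.4% identical to Pabpc4, a poly(A) binding protein) 96.8 TPM and Gm6361 (identical to the ubiquitin enzyme variant Ube2v2) 64.6 TPM.

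Gm12895 and Gm12896 were listed with the same value in each library, from 184.8 to 1068 TPM with a median of 370.6 TPM. Male cKO replicate 3 was the highest at 1068 TPM and male WT replicate 1 the next at 730.1 TPM, and the other 10 libraries lay between 184.8 and 456.5 TPM. In all, 7 sets of members, 15 in number, had the same value in every library. They include Rpl27-ps3 with Gm11518, both identical to Rpl27, and Rpl35a-ps2, Rpl35a-ps3 and Rpl35a-ps4. Such a set holds 1 measurement, not several.

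Among the ribosomal group, Rps16-ps2 was the most abundant with 216.6 ± 26.7 TPM (SD, n = 12), close to the 237.5 ± 21.3 TPM of Rps16, to which it is identical. Rpl28-ps1 had the next highest mean, 101.4 TPM. It was listed at 0 in female cKO replicate 3 and between 87.6 and 153.6 TPM in the other 11 libraries. In female cKO replicate 3, Rpl28 was the highest of all libraries at 310.6 TPM, beside 226.1 to 262.2 TPM elsewhere. The sum of both genes varied less, from 310.6 to 415.7 TPM, with a coefficient of variation of 7.97% against 37.2% for the pseudogene and 9.63% for Rpl28. Rpl27-ps3 and Rpl10a-ps1, copies of further large subunit genes that are identical to their sources, were at 0 in that library too.

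**Figure D2:**
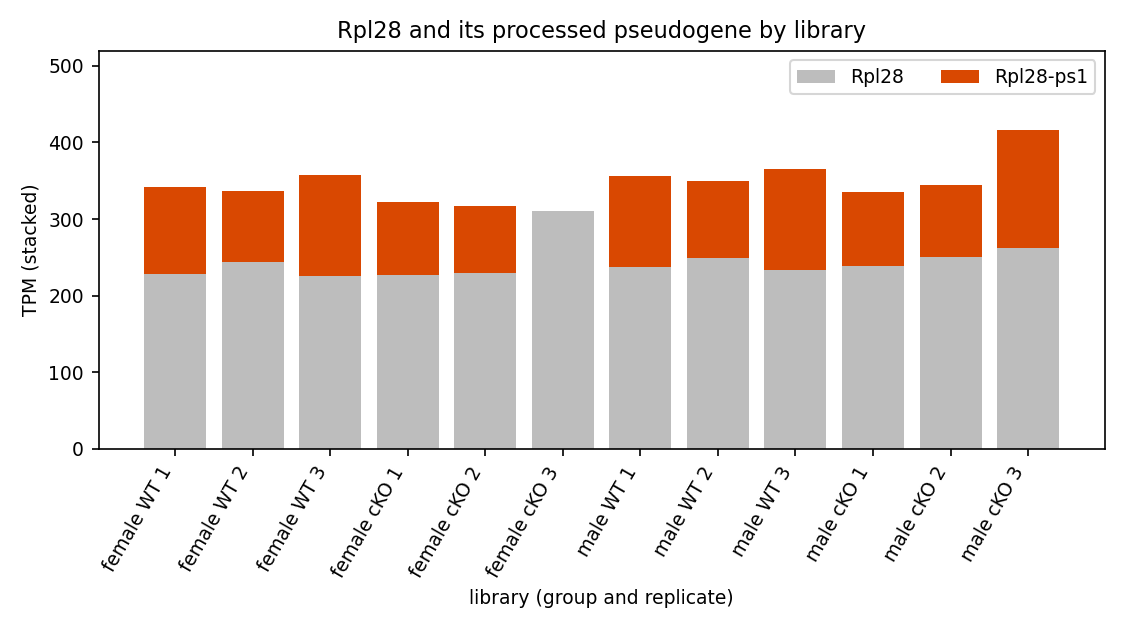
TPM of Rpl28 (grey) and its identical copy Rpl28-ps1 (orange), stacked for each of the 12 libraries. The pseudogene is at 0 in female cKO 3, where Rpl28 is highest at 310.6 TPM, and between 87.6 and 153.6 TPM in the rest.

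The remaining named members of the ribosomal group were at lower levels. Rpsa-ps9 lay between 4.22 and 7.58 TPM, Rps19-ps3 between 2.60 and 6.96 TPM, Rps24-ps3 between 2.76 and 10.7 TPM and Rps23-ps2 between 0.995 and 8.93 TPM, the lowest in female cKO replicate 3. Their sources are proteins of the small subunit. The source Rps23 was also lowest in female cKO replicate 3, at 161.1 TPM, whereas Rpl28 was highest there. Rpl10a-ps1 ranged from 0 to 69.5 TPM with a median of 1.37 TPM, and its source Rpl10a from 201.1 to 321.5 TPM. Rpl31-ps4 and Rpl12-ps2 were among these 10 by their mean, which rested on 1 library each, as described next. Members with a median of at least 1 TPM that were at least 10 times lower in 1 library than in the next lowest, which had to be above 0, numbered 36. Of these, 11 were low in female cKO replicate 3, and at most 4 in any other library. By the same rule 10 protein-coding genes were low in female cKO replicate 3, beside a range of 2 to 12 over all libraries. The share over all genes was not computed. The 11 include Rpl28-ps1, and also Rpl27-ps3 and Gm11518, which are 1 measurement. For 2 of the 11 the next lowest value was itself near 0, at 8.37e-07 TPM in female cKO replicate 1 for Rpl10a-ps1 and 2.90e-08 TPM in male cKO replicate 2 for Gm13092, so these were not low in that library alone. This rule was chosen after the values were seen, and 4 of the 11 have no private sequence.

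The libraries differed in the summed level of the members. The ribosomal group summed to between 283.6 TPM (female cKO replicate 3) and 780.3 TPM (female WT replicate 1), with a median of 433.2 TPM. The others summed to between 4326 TPM (female cKO replicate 1) and 7232 TPM (female WT replicate 1), with male cKO replicate 3 at 6927 TPM and a median of 4774 TPM. These sums, and the shares below, count Gm12895 and Gm12896 apart, although the pair holds 1 measurement. Each had 1068 TPM in male cKO replicate 3 and 456.5 TPM in female WT replicate 1. Sums that count the pair once were not computed. The share of all listed TPM held by members was 0.966% in female WT replicate 1, 0.904% in male cKO replicate 3 and 0.571% to 0.741% in the remaining 10. Members above 0 numbered 1425 in female WT replicate 1 and 1080 to 1167 elsewhere, and members of at least 1 TPM 513 and 311 to 364.

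**Figure D3:**
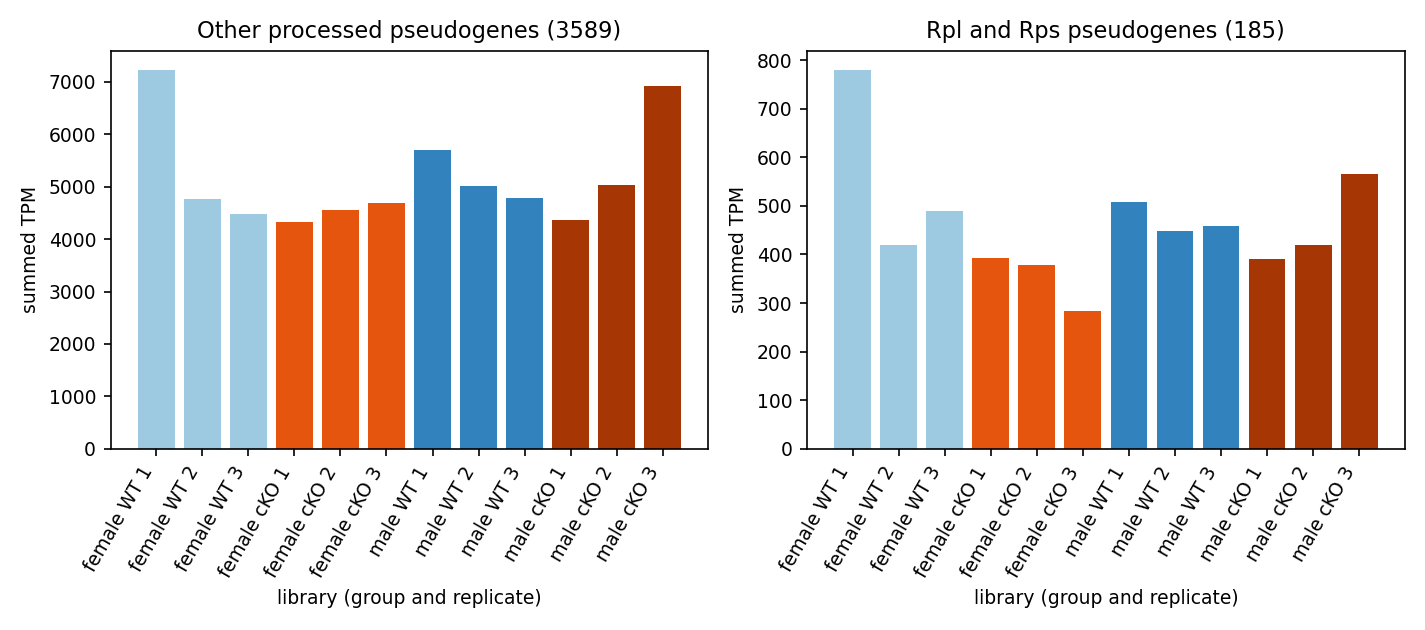
Summed TPM of the 3589 other processed pseudogenes (left) and of the 185 Rpl and Rps pseudogenes (right) in each library, with bars from 0 coloured by group. Female WT 1 is the highest in both panels, at 7232 and 780.3 TPM, and male cKO 3 the second, at 6927 and 564.7 TPM. The left panel counts Gm12895 and Gm12896 apart, each at 1068 TPM in male cKO 3.

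Female WT replicate 1 stood apart by pseudogenes that were nearly absent from the other libraries. Counting genes whose value in 1 library was at least 1 TPM and at least 10 times that in any other, a rule chosen after the values were seen, 163 of the 3774 members qualified (4.32%, beside 0.905% of all 26409 genes), and 119 of them (73.0%) did so in this library. The next library, male cKO replicate 3, had 9. Among tested genes the rule held for 147 of 1372 members and for 1.19% of all 18197 genes, but a gene could pass the filter on the mean by that 1 library, so nothing is read from these counts. In female WT replicate 1 the 119 members had a median of 6.18 TPM and a highest value of 96.2 TPM, and summed to 1600 TPM. They summed to between 6.87 and 16.8 TPM in the other 11 libraries, and 50 of them were listed at 0 in all of those.

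**Figure D4:**
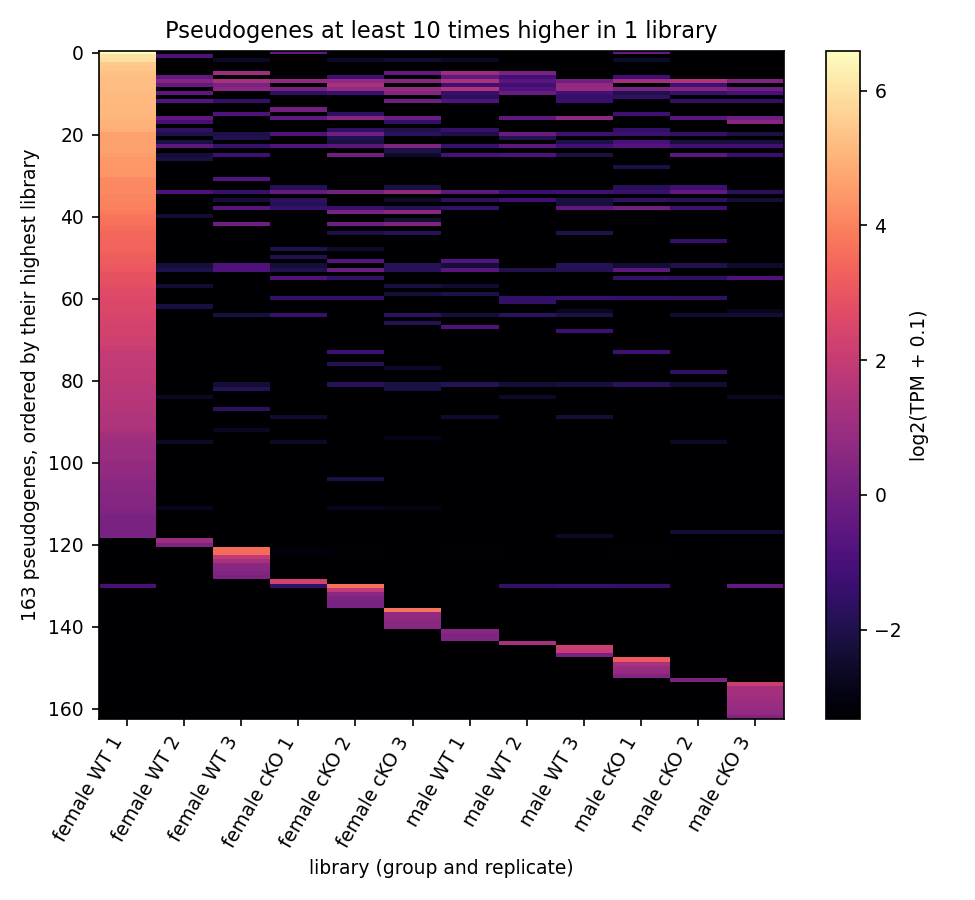
Values of the 163 processed pseudogenes that were at least 10 times higher in 1 library than in any other, as log2(TPM + 0.1), with 1 row for each pseudogene and 1 column for each library. The bright block is the 119 pseudogenes of female WT 1, and no other library has more than 9.

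Rpl12-ps2, whose sequence is shown above, had 44.6 TPM in female WT replicate 1 and was listed at 0 in the other 11 libraries, while Rpl12 lay between 21.9 and 32.9 TPM with 25.6 TPM in this library. Gm14892, a copy of the tubulin gene Tuba1a with 92.0% private sequence, had 96.2 TPM there and at most 0.724 TPM elsewhere. Gm17511, a copy of Rplp1 (a protein of the ribosomal stalk), had 63.8 TPM against at most 0.441 TPM. Gm12912, a copy of the elongation factor gene Eef1a1 that was named after its values were seen, had 61.8 TPM against at most 0.0877 TPM, and Rpl31-ps4 had 37.7 TPM against at most 2.47 TPM.

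The 119 pseudogenes were not those with the least private sequence. Their median private share was 75.6% and only 3 of them had none, against a median of 79.2% over all members. Their median identity to the source was 91.9%. A ribosomal protein gene was the source of 39 (32.8%, against 29.6% of all members), and 61.3% were intergenic (64.5% of all). In an intron of a coding gene or overlapping its exon, on the same strand, lay 17 of the 119, against 412 of all 3774 members. By chromosome 25 were on the X chromosome, 24 on chromosome 4 and 15 on chromosome 2, which is 2.86%, 4.37% and 2.67% of the listed members there. The source genes moved little. For 92 sources with a mean of at least 1 TPM, the median log2 ratio of this library to the median of the other 11 was 0.03, and 2 were over 1.5 times higher.

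Only 14 genes outside the members followed the same rule in this library, and 6 of them encode proteins. Those 6 were Rpl10l, Gm4707, Lin28a, 4930544G11Rik, Sfrp2 and Dnmt3c, and 4 of the others are processed pseudogenes that the annotation classes as transcribed. Lin28a, an RNA-binding protein of pluripotent cells, had 8.28 TPM there and at most 0.0232 TPM elsewhere. A list of 12 genes of pluripotent cells, written after the values were seen, summed to 19.2 TPM in female WT replicate 1 and to between 2.73 and 5.11 TPM in the other libraries. The list includes Lin28a, already picked by the rule above, so 8.28 TPM of that 19.2 TPM is not a separate result. Of the defining genes, Pou5f1 had 4.28 TPM against at most 0.592 TPM and Sall4 3.15 TPM against at most 0.600 TPM, while Nanog had 1.05 TPM against at most 1.02 TPM and Dppa4 and Zfp42 were listed at 0 in all 12 libraries. Utf1, Esrrb, L1td1, Dppa5a and Tdgf1 lay within the range of the other libraries there, and Dnmt3l was the lowest of the 12 at 0.400 TPM, beside 0.424 to 1.81 TPM. In this library 2 of the 12 genes were at 0, and 3 to 6 in the others. The part of such cells in the values of the pseudogenes was not tested.

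Which pseudogenes follow the loss of Dek was asked by setting the 6 cKO libraries against the 6 WT libraries. It was made with limma on log2(TPM + 0.1) over the 18197 genes of the table with a mean of at least 0.1 TPM, in 2 groups of 6, with Benjamini-Hochberg adjustment. Calls required an adjusted p under 0.05 together with a change of more than 1.2 times. Of 1372 members tested, 1 was called higher and 0 lower, beside 0.137% and 0.011% of all tested genes. At an unadjusted p under 0.05 there were 93 members (6.78%, against 6.64% of all genes).

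The called member was Plk-ps1. It had 1.15, 1.21 and 0.803 TPM in female WT and 0.899, 0.638 and 1.21 TPM in male WT libraries, and 2.12, 2.35 and 1.97 TPM in female cKO and 2.17, 1.67 and 2.60 TPM in male cKO libraries. Every cKO library was above every WT library. The log2 fold change was 1.07 (SE 0.18, adjusted p = 0.0377 by limma). Its source Plk1 had 0.935 to 3.09 TPM in all libraries, highest in female WT replicate 1, and a log2 fold change of -0.0023 was found (adjusted p = 0.999 by limma). The call of Plk-ps1 was lost when any of 10 libraries was left out (adjusted p up to 0.108) and remained without female WT replicate 2 or male cKO replicate 2, and its log2 fold change lay between 0.96 and 1.13 throughout.

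Separation of all 6 cKO from all 6 WT values was seen in 3 members, all higher in cKO (0.219%, beside 0.572% of all genes tested), and in 0 members lower in cKO (0.104% of all genes). Besides Plk-ps1 these were Gm12904 and Gm14042. Gm12904, a copy of Ago2 (an Argonaute protein of small RNA silencing), had a median of 0.231 TPM in WT, with values from 0 to 0.311 TPM, and a median of 0.701 TPM in cKO, with values from 0.600 to 1.01 TPM. Its log2 fold change was 1.63 (SE 0.34, adjusted p = 0.109 by limma), and it passed when 0.5 or 1 TPM was added before the logarithm (adjusted p = 0.0364 and 0.0335). Gm14042, named only because it separated, had 3.97 to 4.96 TPM in WT and 5.09 to 6.70 TPM in cKO, a log2 fold change of 0.24 (adjusted p = 0.628 by limma).

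Other members with the smallest p-values did not pass. Gm12312 (source Fgfr1op2) was listed at 0 in 5 of 6 WT libraries and had 0.119 to 0.476 TPM in cKO (adjusted p = 0.202 by limma). Gm7831, a copy of Rpl17, had 0 to 0.204 TPM in WT and 0.192 to 0.657 TPM in cKO (adjusted p = 0.247), and Gm15484, a copy of the nucleolar protein gene Npm1, 0.308 to 0.675 and 0.660 to 1.199 TPM (adjusted p = 0.255). The WT and cKO values overlapped in all 3. In the opposite direction, Gm14251 (source Rpl37a), Gm3617 (source Rpl17) and Gm3531 (source Btf3, a factor that binds nascent chains at the ribosome) were listed at 0 in all 6 cKO libraries. In WT they ranged from 0 to 1.23, from 0 to 0.655 and from 0 to 6.88 TPM, with adjusted p-values of 0.097, 0.239 and 0.369 by limma. All of the 3 lie in an intron of a coding gene on the same strand (Cnbd2, Npas2 and Pam). The call was made for Gm14251 and Gm3617 when male WT replicate 1, where both were at 0, was left out (adjusted p = 0.000577 and 0.0325 by limma). The remaining 5 WT values were then all above 0 against 6 cKO values at 0, and both genes passed the filter on the mean through WT libraries alone. Rpl9-ps7 had 0.772 to 1.81 TPM in WT and 0.203 to 1.11 TPM in cKO (log2 fold change -1.24, adjusted p = 0.285), and Gm10443 303.5 to 377.7 and 206.7 to 313.6 TPM (log2 fold change -0.35, adjusted p = 0.298).

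**Figure D5:**
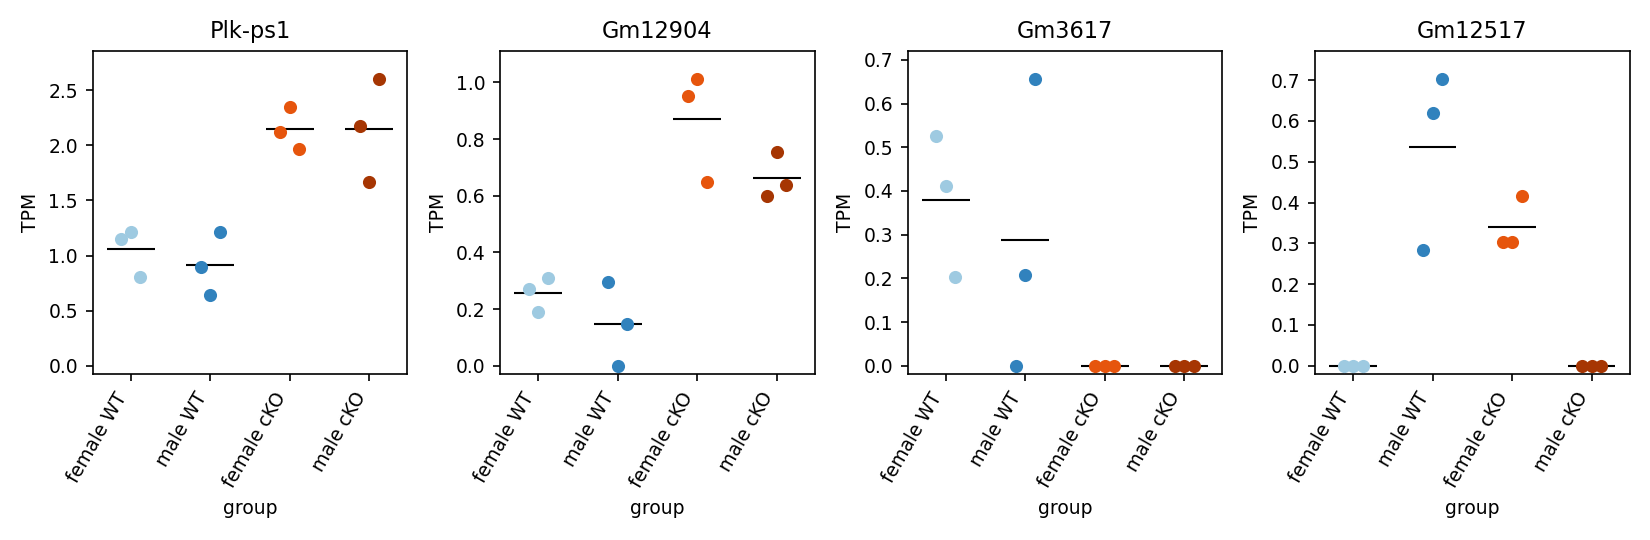
TPM of Plk-ps1, Gm12904, Gm3617 and Gm12517 in each library (points) with the mean of each group of 3 (line), on linear axes. Plk-ps1 and Gm12904 separate cKO from WT in both sexes, Gm3617 is at 0 in all 6 cKO libraries, and Gm12517 is at 0 in female WT and male cKO by labelled sex.

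With the wider threshold of an unadjusted p under 0.05 and a fold change of at least 1.5, 43 members were higher in cKO (3.13%, beside 2.09% of all genes) and 42 lower (3.06%, beside 0.594%). Most were at low levels, with a mean under 1 TPM in 36 of the 43 and 31 of the 42. Among protein-coding genes the shares were 1.87% higher and 0.303% lower. Without the fold change, an unadjusted p under 0.05 was met by 6.78% of members and 6.64% of all genes. Of those lower, 14 were at 0 in all cKO libraries, and of those higher, 7 were at 0 in all WT libraries. These 14 and 7 passed the filter on the mean through the other genotype alone. A ribosomal protein gene was the source of 13 of the members higher and 14 of those lower. With 1 TPM added before the logarithm the counts were 8 and 11.

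Over the members tested, the median log2 fold change of cKO over WT was -0.31 in the ribosomal group (99 members) and -0.09 in the others (1273 members), beside 0.02 over all genes. The filter on the mean admitted 113 of the 119 pseudogenes of female WT replicate 1, which could pass by that library alone. Without that library the medians were -0.14 (88 members) and 0.02 (1176 members), beside 0.01 over all genes. In females the medians were -0.59 and -0.10, and -0.29 and 0.01 without that library. In males both were 0, and -0.06 in the ribosomal group and 0 in the others over the 88 and 1176 members tested without it. Members at 0 in all male libraries, such as Rpl12-ps2, have a log2 fold change of 0 there. They could pass the filter through females. In males 44.4% of the ribosomal group and 47.1% of the others had a log2 fold change above 0, against 30.3% and 41.9% in females. Ribosomal protein coding genes had a median of 0.03, with 0 of 84 called by limma and 3 at an unadjusted p under 0.05. The summed level of the ribosomal pseudogenes was 517.2 ± 132.7 TPM in WT and 404.7 ± 91.1 TPM in cKO (SD, n = 6), and 464.6 ± 35.2 TPM in WT without female WT replicate 1. For the others the sums were 5328 ± 1020 and 4980 ± 987 TPM, and 4947 ± 460 TPM in WT without it. Differences between these means were smaller than the larger SD of their groups.

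Within females 0 members were called by limma, with 91 at an unadjusted p under 0.05 (6.63%, beside 5.79% of all genes). By the wider threshold 37 were higher (beside 1.85%) and 49 lower (beside 0.835%). Of all genes, 0.011% were called higher and 0.0055% lower. Within males 0 were called, with 69 at an unadjusted p under 0.05 (5.03%, beside 5.45%), 38 higher by the wider threshold (beside 2.02%) and 28 lower (beside 0.665%), and the same shares of all genes were called. For the interaction of genotype and sex 0 were called by limma, beside 0 of all genes, with 69 members at an unadjusted p under 0.05 (5.03%, beside 4.23%), 43 of them positive by the wider threshold (beside 1.32%) and 26 negative (beside 1.08%). Between male WT and female WT 0 members and 0 genes in all were called, with 96 members at an unadjusted p under 0.05 (7%, beside 3.63%). There, 37 members were higher in males by the wider threshold (2.7%, beside 0.637%) and 56 lower (4.08%, beside 1.12%). The count of lower members was 29 (2.29%, beside 0.962% of all genes in the same fit) without female WT replicate 1 and 33 (2.40%, beside 0.994%) without male WT replicate 3. It was 103 (7.45%, beside 1.26%) without female WT replicate 2 and 115 (8.30%, beside 1.498%) without female WT replicate 3. The count lower in female cKO likewise was 116 (8.39%, beside 1.16%) and 101 (7.29%, beside 1.251%) without female WT replicates 2 and 3. Without female WT replicate 1 it was 34 (2.69%, beside 0.879%), and 46 members were higher in female cKO (3.64%, beside 1.66%). Without both libraries whose Y-linked genes went against their label, members higher and lower by the wider threshold numbered 36 and 39 in females (beside 2.69% and 0.973% of all genes) and 39 and 40 in males (beside 2.23% and 1.14%). For the interaction 42 were positive and 39 negative (beside 1.64% and 2.68%), and 36 were higher and 53 lower in male than in female WT (beside 0.709% and 1.09%). By the adjusted p, 0 members were then called in females, 2 in males, 1 for the interaction and 0 between WT sexes. Among all 18198 genes of that fit, 11, 7, 2 and 4 were called. The main fit took its spread from all 4 groups, these 2 libraries included. Its 0 calls between WT sexes are therefore not read as an absence of sex differences.

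Opposite separation in the 2 sexes, with all 3 cKO values on one side of the WT values in females and on the other side in males, was seen in 7 members (0.51%, beside 0.379% of all genes tested). Gm12517, the Rps23 copy shown above, was named from these after the values were seen. It was listed at 0 in all 3 female WT and all 3 male cKO libraries, and had 0.304, 0.302 and 0.417 TPM in female cKO and 0.284, 0.619 and 0.702 TPM in male WT libraries. The adjusted p of the interaction was 0.098 by limma, and 0.127 without the 2 libraries whose Y-linked genes went against the label. The groups here follow the labels. By Y-linked genes, male cKO replicate 1, at 0, would join the female cKO libraries. Female cKO replicate 3, above 0, would join the male cKO libraries, and Gm12517 would then separate in neither sex. Gm12517 passed with a prior variance without trend (adjusted p = 0.00234 by limma) or without the filter on the mean (adjusted p = 0.00555 by limma). It was chosen for its separation and the groups at 0 have no spread, so nothing is read from these p-values. Where the filter was used, Gm12517 passed it through female cKO and male WT libraries alone. No fold is given against groups at 0. Rps23 lay between 161.1 and 230.9 TPM in all 12 libraries.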

How the data were processed

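The deposited table held TPM values, with 1 column for each of the 12 hippocampal libraries, made by the authors from poly(A)-selected, stranded, paired-end reads. The submitters' processing notes name kallisto and the mm10 build, while the study's methods describe an nf-core pipeline with STAR and Salmon, and which wrote the table is not given in the sources used here. TPM keeps no read depth, so no counting interval is given, and its precision is limited by the number of libraries. Gene classes, positions and transcript sequences came from GENCODE M21 on GRCm38. Sources were found with BLAST 2.17.0 against coding transcripts. Private sequence was the share of 31-mers found in no other gene among 141767 transcripts. Tests used limma 3.58.1 in R 4.3.3, with a trended prior variance, on log2(TPM + 0.1) two-sided, for genes whose mean reached 0.1 TPM, with Benjamini-Hochberg adjustment over all 18197 genes. Both sexes together were fitted in 2 groups of 6, and the other comparisons as contrasts of 1 fit with 4 groups. The fit of both sexes together was tried on simulated normal log2 values. Changes were put only into genes with a mean log2 value over 1, so the trial does not cover members at low levels.

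The members and lists were chosen with earlier results of these data known. The text names the 10 members of each class with the highest mean, any member called, the 5 with the smallest p in each direction between genotypes, and the 5 with a mean of at least 1 TPM and the widest range of log2(TPM + 0.1) over the libraries, and any other was chosen after its values were seen. Alternatives were other pseudocounts, filters, scalings, a prior without trend, a sex term, a replicate block, and leaving out libraries. The A content downstream of each copy was not analysed here.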

Additional observations from a re-analysis of the deposited data

Results flagged for a closer look

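In 72 groups of 6 libraries, 19 values lay far from the other 5 by Dixon's criterion, which chance alone meets in about 1 in 20 groups. That rate does not apply to members named for their wide range or for a mean that rests on 1 library, and several of the values come from the same libraries. Female WT replicate 1 stood apart among WT libraries in the summed level of the ribosomal pseudogenes (780.3 TPM, nearest other 507.9 TPM) and in the number of members above 0 (1425, nearest other 1143). It also stood apart in Rpl10a-ps1 (69.5 TPM), Rpl31-ps4 (37.7 TPM), Rpl12-ps2 (44.6 TPM), Gm3531 (6.88 TPM), Gm12338 (171.9 TPM), Gm14892 (96.2 TPM) and Gm17511 (63.8 TPM).

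Among cKO libraries, male cKO replicate 3 stood apart in the summed level of the other pseudogenes (6927 TPM, nearest other 5026 TPM), in Rps16-ps2 (277.7 TPM), in Gm12895 and Gm12896 (1068 TPM each, which is 1 measurement) and in Tpt1-ps3 (354.6 TPM). Its source Tpt1 was also highest there, at 911.1 TPM against 448.3 to 558.9 TPM. The summed level of the other pseudogenes in that library counts Gm12895 and Gm12896 apart. Male cKO replicate 2 stood apart in Rpl10a-ps1 (24.0 TPM), female cKO replicate 2 in Rpl31-ps4 (2.47 TPM) and Gm12338 (56.6 TPM), and female cKO replicate 3 was low in Rps23-ps2 (0.995 TPM). In Gm12312, female WT replicate 3 was the only WT library above 0 (0.169 TPM). Gm12338, a copy of the respiratory chain gene Cox7c, was above 0 in 7 of 12 libraries, while Cox7c lay between 515.2 and 611.4 TPM.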

How the results depend on the processing

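The 1 member called between genotypes in both sexes, Plk-ps1, was joined by Gm12904 with a pseudocount of 0.5 or 1 TPM, giving 2 calls each. All genes called numbered 32 in each of those fits, against 27 in the main fit. There were 0 calls without a filter on the mean, with a mean of at least 1 TPM, with sex as a covariate, with a replicate block and without both libraries whose Y-linked genes went against their label. All genes called in those fits numbered 17, 19, 21, 3 and 16, in that order. Leaving out 1 library gave 0 to 2 calls, the 2 being Gm14251 and Gm3617 without male WT replicate 1. The fits without 1 library called 13 to 27 genes in all, and that without male WT replicate 1 called 18. Within females, where 0 were called, the prior variance without trend gave 1 (Gm12517, beside 7 of all genes). Leaving out 1 library gave 0 to 1 there (beside 1 to 7). Within males the counts were 1 without a filter and 1 without trend (Gm12517 in both, beside 6 of all genes in each). They were 2 without both libraries of conflicting sex (Gm13114 and Gm16053, beside 7) and 0 to 1 on leaving out 1 library (beside 2 to 7). For the interaction they were 1 without a filter and 1 without trend (Gm12517 in both, beside 2 of all genes in each). They were 1 without both libraries (Gm13114, beside 2) and 0 to 1 on leaving out 1 library (beside 0 to 1). Between WT sexes they were 1 without a filter and 1 without trend (Gm12517 in both, beside 3 of all genes in each). The 43 members higher at an unadjusted p under 0.05 became 22 and 8 with pseudocounts of 0.5 and 1 TPM and 6 with a mean of at least 1 TPM, and the 42 lower became 25, 11 and 11, and 67 without a filter. The log2 ratio of the summed ribosomal pseudogenes, -0.35, was -0.72 over members with at least 10% private sequence. That set includes Rpl12-ps2 (44.6 TPM in female WT replicate 1, 0 elsewhere) and Rpl31-ps4 (37.7 TPM there, at most 2.47 TPM elsewhere). The ratio of -0.72 was not computed without that library. The cause of these changes was not tested. Without female WT replicate 1 the median log2 fold change of the other pseudogenes turned from -0.09 to 0.02 and the log2 ratio of their sums from -0.10 to 0.01, each a shift smaller than the SD between libraries.

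Same-numbered WT and cKO libraries did not deviate together, with correlations between -0.0385 and 0.0445, so the replicate number was taken to pair nothing. With the replicate block the adjusted p of Plk-ps1 was 0.110 and 3 genes of the whole table were called, against 27 without it. TPM gives no depth, so a value of 0 is only a listed 0, and where a copy has no private sequence its level and that of its source cannot be told apart.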

Other observations

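Dek lies on chromosome 13, where 89 of 545 annotated processed pseudogenes were listed and 32 tested. Of these, 1 was higher and 2 were lower in cKO by the wider threshold of the report, and 0 were called by limma. Over the table, 3.13% of the members tested were higher and 3.06% lower by that threshold, beside 2.09% and 0.594% of all genes.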
